A study of Mus musculus with 11 samples.

Results

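CpG-sparse tiles at intermediate methylation are stretches of the mouse genome that hold few measured CpG sites and are methylated in only part of the DNA molecules of blood progenitors. The genome was cut into fixed 1000-bp tiles, and a tile was measured where at least 3 C positions (the cytosine of a CpG, with the strands counted apart) had 10 or more reads in all 10 libraries of known genotype. Of 100150 measured tiles, 13156 were autosomal, held 3 to 19 C positions and had a mean level from 20% to below 80% over the 5 control libraries. They were chosen by these control levels and are called sparse intermediate tiles here. Sparse and CpG-dense tiles are told apart by the number of C positions measured in every library, not by the CpG content of their DNA. A tile level is the percent of methylated reads among all reads over its C positions.

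The libraries were enhanced reduced representation bisulfite sequencing, in which genomic DNA is cut with MspI at CCGG and unmethylated cytosines are converted before sequencing. All mice were labelled C57BL/6, aged 12 months, carried Dnmt3a f/f and had been given poly(I:C) in 5 injections. Knockout mice also carried Mx1-Cre and control mice did not. Mx1 is an interferon-responsive promoter, so deletion is induced by the injections and is not limited to one blood cell type. Bone marrow was sorted into LSK cells (Lin- Sca1+ cKit+, the fraction with the stem cells; 3 control and 3 knockout libraries) and GMP cells (Lin- Sca1- cKit+ CD34+ FcgR+, granulocyte-macrophage progenitors; 2 control and 2 knockout libraries). Whether every library came from its own animal is not stated in the labels. The spread among libraries of a group may therefore be technical. The p-values rest on this spread pooled over all groups and moderated by the spread in all tiles.

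Dnmt3a is a de novo DNA methyltransferase, which adds methyl groups to CpG sites, while Dnmt1 copies the pattern at replication and Tet enzymes oxidise it. Most CpG-poor DNA of mammalian cells is highly methylated and most CpG-dense promoters are unmethylated. Intermediate levels in CpG-poor DNA are found at many enhancers, at the shores of CpG islands and at imprinted loci, where cells or alleles differ. In sorted bulk cells, fewer cells with a methylated tile and fewer methylated sites per cell cannot be told apart.

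Most of these tiles, like most measured tiles, lie in gene bodies or within 1000 bp of a gene end, and a few overlap promoters whose sequence is at hand. Of 32851 RefSeq promoter windows (250 bases before to 50 after a gene start, GRCm38.p6), 249 held at least 3 C positions of a sparse intermediate tile. The 6 shown were chosen after their values were seen: Eva1b, Rasip1 and Slc7a7 lost methylation in knockout LSK cells, Mcemp1 and Abca13 differed between LSK and GMP cells, and Kcne4 shows a CpG whose strands differ. Each sequence is the gene's strand from 5′ to 3′, and capitals mark the CG dinucleotides at which C positions were measured.
Eva1b, chr4:126147753-126148052, plus strand: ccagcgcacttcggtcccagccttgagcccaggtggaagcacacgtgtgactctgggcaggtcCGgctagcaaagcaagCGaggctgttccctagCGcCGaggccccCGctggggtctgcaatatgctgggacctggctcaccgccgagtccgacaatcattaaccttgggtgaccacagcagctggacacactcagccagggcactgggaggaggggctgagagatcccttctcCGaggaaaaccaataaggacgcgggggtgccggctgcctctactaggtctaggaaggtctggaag
Rasip1, chr7:45627287-45627586, plus strand: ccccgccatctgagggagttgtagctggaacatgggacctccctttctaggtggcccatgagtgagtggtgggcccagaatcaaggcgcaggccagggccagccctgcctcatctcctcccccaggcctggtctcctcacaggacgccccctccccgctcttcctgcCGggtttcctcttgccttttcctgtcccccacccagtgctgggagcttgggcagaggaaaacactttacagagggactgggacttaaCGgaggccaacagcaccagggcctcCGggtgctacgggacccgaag
Slc7a7, chr14:54417630-54417929, minus strand: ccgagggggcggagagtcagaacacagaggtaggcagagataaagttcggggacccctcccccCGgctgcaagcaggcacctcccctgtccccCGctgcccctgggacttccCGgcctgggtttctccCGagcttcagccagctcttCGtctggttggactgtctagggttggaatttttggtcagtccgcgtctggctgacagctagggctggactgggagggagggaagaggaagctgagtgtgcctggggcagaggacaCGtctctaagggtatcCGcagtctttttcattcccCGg
Mcemp1, chr8:3665512-3665811, plus strand: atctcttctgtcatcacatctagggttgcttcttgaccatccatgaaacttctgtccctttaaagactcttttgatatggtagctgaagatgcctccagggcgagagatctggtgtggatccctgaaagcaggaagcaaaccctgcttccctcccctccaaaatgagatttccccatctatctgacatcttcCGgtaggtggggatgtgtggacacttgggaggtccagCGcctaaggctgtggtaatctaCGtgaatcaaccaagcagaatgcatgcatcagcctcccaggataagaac
Abca13, chr11:9191692-9191991, plus strand: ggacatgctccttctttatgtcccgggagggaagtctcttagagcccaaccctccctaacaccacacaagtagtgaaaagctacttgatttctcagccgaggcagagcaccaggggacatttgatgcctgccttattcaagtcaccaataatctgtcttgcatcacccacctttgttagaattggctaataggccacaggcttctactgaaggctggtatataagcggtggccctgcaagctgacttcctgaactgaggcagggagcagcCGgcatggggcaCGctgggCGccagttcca
Kcne4, chr1:78816661-78816960, plus strand: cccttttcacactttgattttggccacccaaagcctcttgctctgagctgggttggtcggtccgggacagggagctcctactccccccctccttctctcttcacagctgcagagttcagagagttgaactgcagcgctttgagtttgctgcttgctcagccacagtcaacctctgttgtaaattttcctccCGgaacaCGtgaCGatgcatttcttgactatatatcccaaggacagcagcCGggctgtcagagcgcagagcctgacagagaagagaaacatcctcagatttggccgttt

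The letters show how thinly the assay samples such DNA. The Eva1b window holds 15 CG dinucleotides, of which 6 were measured, Slc7a7 holds 13 with 8 measured, and Mcemp1 holds 4 with 3 measured. The 249 windows had a median of 9 CG dinucleotides, against 7 over all promoter windows. The 249 needed at least 3 measured C positions, while all windows include those without a CG, so this gap follows partly from the choice. All 249 held CCGG, as 52.8% of all windows did, since MspI cuts there. Searched on both strands, the Runx core TGTGGT was in 17.3% of the 249 windows and 16.8% of all windows, the Gata motif AGATAA in 9.64% and 11.2%, the Ets core GGAA in 99.6% and 96.0%, and the E-box CACGTG in 8.43% and 7.15%. The AP-1 motif TGACTCA was in 6.83% of the 249 and 5.20% of all, TTGGC in 56.2% and 46.7%, CCAAT in 32.1% and 37.4%, and the octamer part ATTGCAT in 0.803% and 2.0%. These shares describe letters, over sets of windows not matched for CG content, and say nothing of binding.

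Depth and labels were checked first. Coverage added up over positions ranged from 157 to 181 M for LSK and from 95.4 to 110 M for GMP, so depth goes with cell type. LSK libraries 1326 (control) and 1327 (knockout) list 1470 and 1422 Y positions, the other 4 LSK libraries 211 to 229, and the GMP libraries 1226 to 1326. Of 356 C positions of Dnmt3a listed in every control, 5 were picked because no knockout LSK library listed them (chr12:3903653-3904031). Their absence in knockout LSK is thus set by the choice and is no check of those labels. Knockout GMP libraries 178 and 179 listed 4 and 5 of these positions, at 27.9% and 53.3% of the control coverage relative to the flanks. At granule genes, which GMP cells begin to express, the tile of Ctsg (cathepsin G) averaged 90.4% in control LSK and 52.1% in control GMP, and those of Mpo (myeloperoxidase) 93.2% and 56.1%, and tiles of both were called lower in control GMP. Those of Elane (neutrophil elastase) averaged 94.4% and 85.9%, those of Prtn3 (proteinase 3) 6.19% and 4.41% and those of the Fc receptor gene Fcgr3 47.8% and 39.95%, without a call, and none was called at Csf3r. At the stem cell genes Hlf, Mecom, Procr, Meis1, Mycn, Tie1 and Esam no tile was called between the control cell types. No expression was measured.

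The first question was how the sparse intermediate tiles of LSK cells responded to deletion of Dnmt3a. Their mean level in control LSK was 57.7% in library 1326, 58.0% in 1330 and 57.4% in 1331. In knockout LSK it was 53.7% in 1327, 50.5% in 1333 and 51.4% in 1334. The group means were 57.7 ± 0.299% and 51.9 ± 1.66% (SD, n = 3 each), a difference of -5.85 points with no overlap, and 1327 was the highest knockout library. Over all measured tiles the difference was -1.68 points, over sparse tiles at 80% or more -1.29 points, and over the 348 CpG-dense tiles at 20 to below 80% it was -6.71 points. Between 285 and 315 sparse intermediate tiles lay below 20% in each control LSK library, against 893 in 1327, 1229 in 1334 and 1485 in 1333. The means are descriptions, since the control levels chose the tiles.

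**Figure D1:**
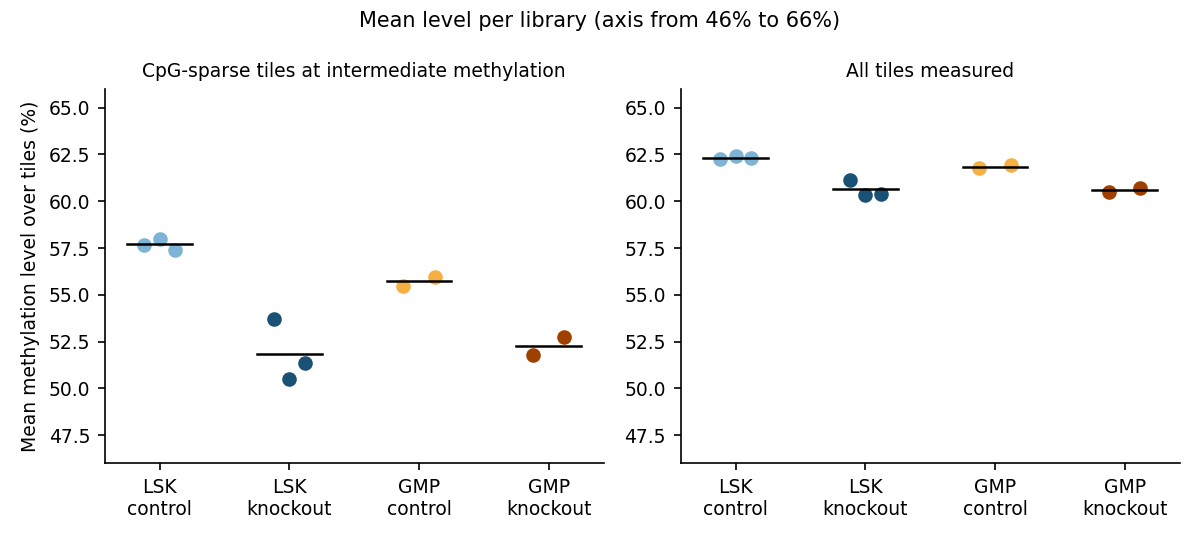
Mean methylation level in percent (vertical axis, from 46% to 66%) of each of the 10 libraries over the 13156 sparse intermediate tiles (left) and over all 100150 tiles (right); each point is a library and each line a group mean. Knockout LSK libraries sit between 50.5% and 53.7% on the left, under the controls at 57.4% to 58.0%, and both knockout GMP libraries sit under both GMP controls.

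A quasi-binomial model of methylated and unmethylated reads was fitted to every tile over all 10 libraries, with Benjamini-Hochberg adjustment over 100150 tiles. A tile was called where the adjusted p was under 0.05 and the group means differed by at least 20 points. In knockout LSK, 762 sparse intermediate tiles (5.79%) fell and 3 rose. Over all tiles 995 fell, which is 0.994%, and 4 rose, which is 0.00399%. The control LSK libraries took part in choosing the tiles, so this gap is not read as a result.

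Choosing tiles by the control GMP libraries alone gives a comparison that the LSK libraries did not enter. It kept 13212 sparse tiles, of which 679 (5.14%) fell in knockout LSK, with a mean difference of -5.67 points. Binned in the same way, LSK levels differed by -0.605 points at a control GMP level below 10%, by -5.51 points at 20 to 30%, by -6.53 points at 40 to 50%, by -6.65 points at 50 to 60% and by -4.63 points at 70 to 80%. At 90% or more they differed by -0.886 points. The share that fell was 2.42% at 20 to 30%, 7.34% at 40 to 50% and 4.09% at 70 to 80%, so it was highest in the middle of the range. A tile near 20% has no room for a fall of more than its own level.

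**Figure D2:**
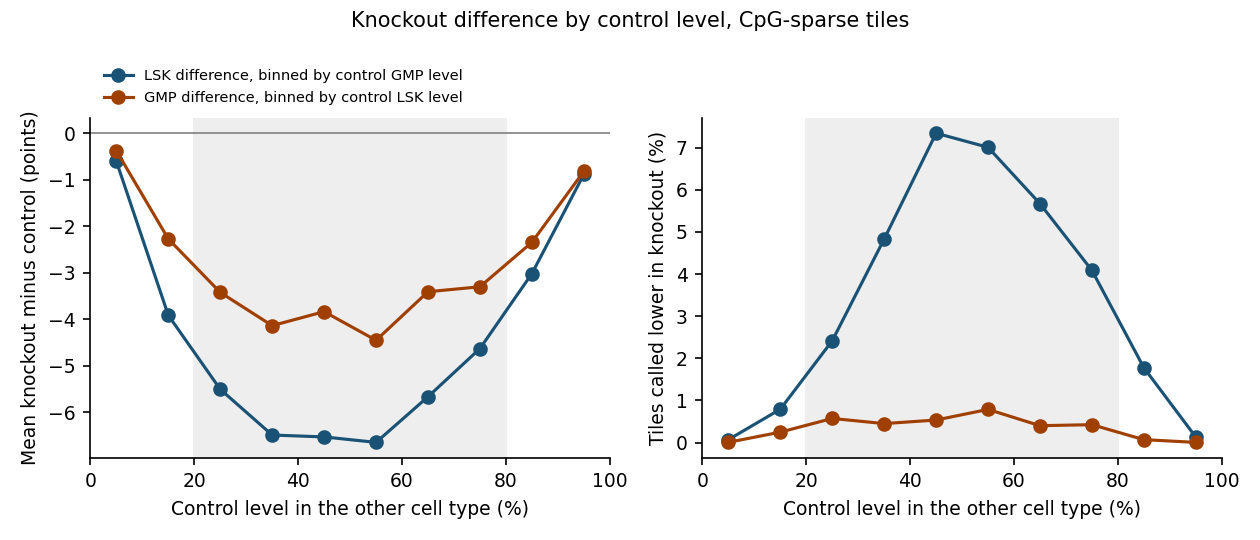
Mean knockout minus control difference in percentage points (left) and percent of tiles called lower (right) for all CpG-sparse tiles, binned in steps of 10% by the control level of the other cell type (horizontal axis); blue is LSK binned by control GMP and brown is GMP binned by control LSK, and grey marks 20 to 80%. Both differences are deepest between 20% and 80%, with -6.65 points in LSK and -4.45 points in GMP at 50 to 60%.

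Falls were wide-ranging in size. The 762 tiles had a median difference of -25.1 points, 189 fell by 30 points or more and 33 by 40 or more. Their median level went from 60.3% in control LSK to 31.7% in knockout LSK, and 206 of them ended below 20%. In all 762 the 3 knockout libraries lay below the 3 controls. Non-overlap alone is common: 3907 sparse intermediate tiles (29.7%) had all knockout LSK libraries lower and 268 (2.04%) had them all higher, against 15.3% and 3.33% of all tiles.

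The largest fall was in Gnai2, which encodes an inhibitory G protein alpha subunit that carries chemokine receptor signals. The tile chr9:107630001-107631000, in the gene body with 4 C positions, stood at 75.6%, 73.7% and 74.4% in the control LSK libraries and at 10.3%, 18% and 10.2% in the knockouts. The difference was -61.7 points (SE 3.04, adjusted p = 7.5e-06 by the quasi-binomial test). In GMP it stood at 78% and 80.3% in controls and 38.2% and 45.3% in knockouts, a called fall of 37.4 points that was lost without library 346, 349 or 178 (adjusted p = 0.0991 to 0.209 by the same test).

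Cbfa2t3, a corepressor gene of stem cells and erythroid progenitors also known as ETO2, held 2 of the 10 largest falls. At chr8:122674001-122675000, with 14 C positions, control LSK libraries had 65.4%, 69.9% and 63.3% and knockouts 14.5%, 11% and 9.53%, a difference of -54.5 points (SE 3.36). At chr8:122676001-122677000, with 11 C positions, the means differed by -47.0 points (SE 2.18). Both tiles were also called lower in knockout GMP, with differences of -34.7 and -28.5 points. Runx3, of the Runx family of blood transcription factors, fell from 64.3%, 65.4% and 62.8% to 15.8%, 8.07% and 9.31% at chr4:135155001-135156000, a tile of 17 C positions (-53.1 points, SE 3.59). Pou2f2, which encodes the B cell factor Oct-2, fell from 73.4%, 71.8% and 69.5% to 31.2%, 16.6% and 13.2% at chr7:25121001-25122000. None of these 4 tiles had overlapping libraries in LSK, which the rule that named them required.

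Dok2, an adaptor that restrains tyrosine kinase signalling in myeloid cells, fell from 68.3%, 82.2% and 67.3% to 20.6%, 14.1% and 21.7% at chr14:70777001-70778000. Prdm16, a zinc finger factor needed by blood stem cells, fell from 57.9%, 59.8% and 64.5% to 16.3%, 11.2% and 10.9% at chr4:154586001-154587000. That tile lies in a 5-Mb window where some positions were listed in one genotype only, within LSK and within GMP. Strain origin of such windows was not tested, nor was their part in the fall. Of the 762 tiles, 67 (8.79%) lay in such windows of either cell type, and 690 tiles fell when the windows were left out. The others of the 10 largest falls were a tile near Nes (-54.2 points), one in Rerg (-47.8 points), a Ras-related GTPase gene, and one near the lncRNA gene Gm32747 (-47.7 points), with 3, 4 and 3 C positions.

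**Figure D3:**
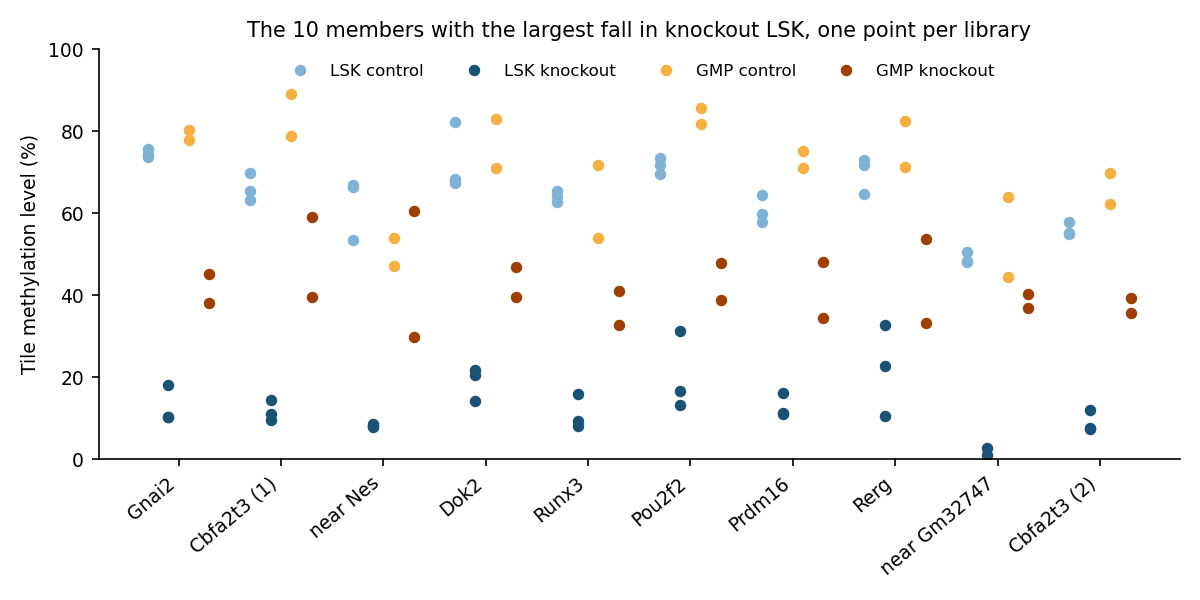
Tile methylation level in percent (vertical axis, 0 to 100) of the 10 sparse intermediate tiles with the largest called fall in knockout LSK, one point per library and a colour per group. Knockout LSK points lie at 32.8% or lower in every tile, and both knockout GMP points lie above all 3 knockout LSK points of the same tile. The tiles were chosen for their fall in LSK, so this order follows partly from the choice.

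At Eva1b, a gene of a small membrane protein family, all 6 C positions of the tile lie in the promoter window shown above. The mean over those positions was 57.1%, 45.6% and 46.7% in control LSK and 14.5%, 10.6% and 8.36% in knockout LSK, and the tile (chr4:126147001-126148000) was called lower by 37.6 points. In GMP it was 40.6% and 55.6% in controls and 45.0% and 36.4% in knockouts, which overlap. Position -187 from the start went from 60.3% to 7.06% and position -171 from 75.7% to 11.6% between the LSK groups. Among the motifs searched, the window holds the Runx core, the E-box and CCAAT.

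Rasip1, a Ras-interacting gene of vascular endothelium, had 3 positions in its window, with means of 35.9%, 36.6% and 39.8% in control and 9.19%, 3.86% and 8.77% in knockout LSK. At Slc7a7, the light chain of a cationic amino acid transporter, 11 of the 17 C positions of the tile lie in the window, with means of 39.4%, 44.4% and 33.8% in control and 20.8%, 7.68% and 14.3% in knockout LSK. Both tiles were called lower in LSK, by 35.7 and 23.7 points, and neither was called in GMP. In all, 24 of the 249 windows lay on tiles that fell in knockout LSK and 1, of Gm32316, on a tile that fell in knockout GMP. Of all sparse intermediate tiles 5.79% fell in LSK and 0.524% in GMP, and of all tiles 0.994% and 0.0869%.

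**Figure D4:**
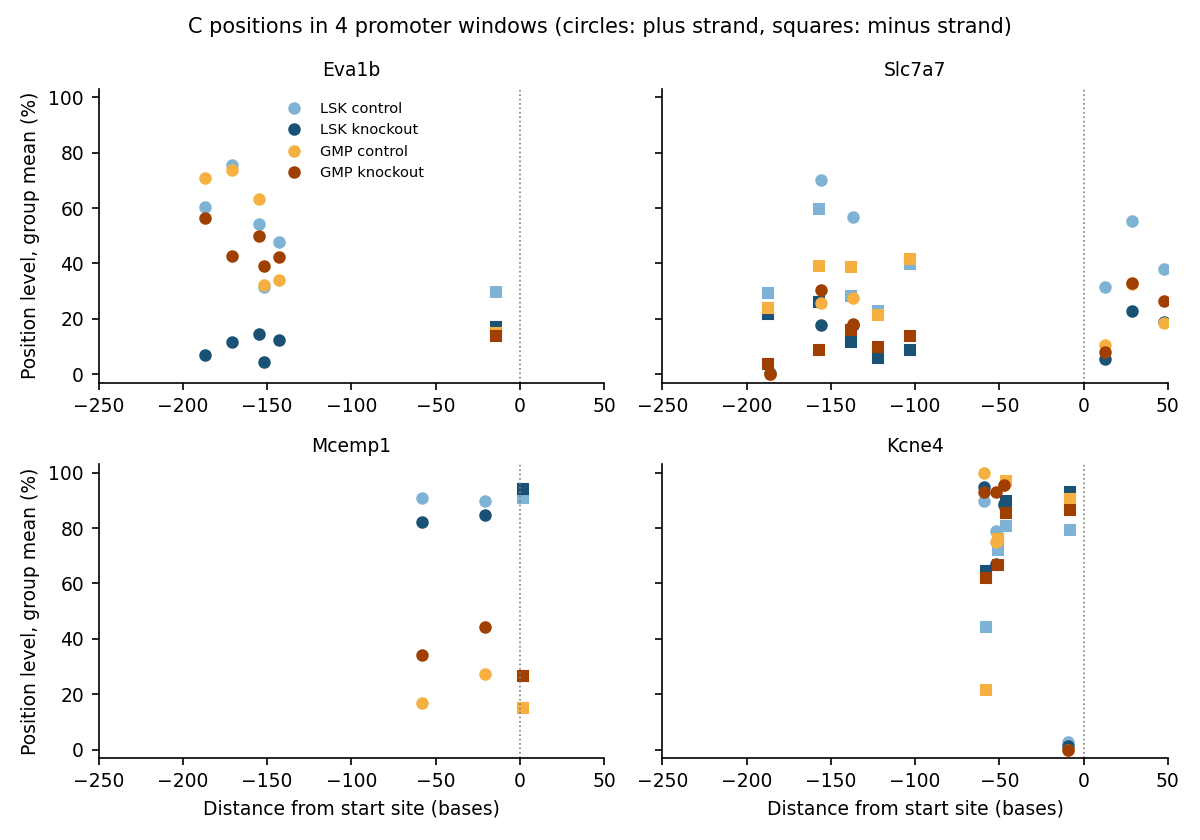
Group mean level in percent (vertical axis) of each measured C position by its distance in bases from the gene start (horizontal axis) in 4 promoter windows; circles are plus-strand and squares minus-strand positions, and colours are the 4 groups. In Eva1b the knockout LSK points lie lowest at the 5 upstream positions, in Mcemp1 the LSK points lie above the GMP points, and in Kcne4 a CpG beside the start has its strands at opposite ends of the scale.

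Position in the gene went with the size of the response. Tiles in gene bodies, more than 1000 bp from both ends, differed by -6.54 points in LSK and 7.02% of them fell. Tiles within 1000 bp of a gene end differed by -6.32 points (5.53% fell), and tiles outside genes by -4.39 points (4.01% fell). Of all sparse intermediate tiles 48.1% were in gene bodies, 22% at gene ends and 29.9% outside genes, against 58.3%, 21% and 20.7% of the 762. Over all measured tiles these shares were 43.4%, 31.9% and 24.6%. Those beside an unmethylated CpG-dense tile differed by -7.27 points (5.71% fell), those with another measured neighbour by -6.51 points (6.85% fell) and those without a measured neighbour, 68.6% of all, by -5.49 points (5.40% fell). The mean difference and the share that fell thus gave different orders.

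More reads also went with more calls. The share that fell was 3.71% in the 3288 tiles with fewest reads and 7.02% in the 3289 with most, and mean differences in these sets were -4.32 and -6.81 points. Tiles of 3 to 4 C positions differed by -5.70 points and those of 16 to 19 by -6.75 points. By chromosome, the share that fell ran from 4.13% on chromosome 13 to 7.26% on chromosome 19. Of 274 fallen tiles with a measured neighbour, 41 (15%) lay next to another fallen tile, against 115 of 4127 (2.79%) among sparse intermediate tiles.

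An intermediate tile level can come from alike or unlike positions. Of 72621 C positions in these tiles, 55.8% were themselves at 20 to below 80% in controls, 15.9% were below 20% and 28.3% at 80% or more. The median gap between the highest and lowest position of a tile was 49.0 points. The 2389 tiles whose positions were all intermediate differed by -7.53 points in LSK, and 9.71% of them fell. The 3543 tiles that held positions both below 20% and at 80% or more differed by -3.31 points, and 2.46% fell. Tiles with one extreme kind only lay between, at -6.47 points with high and -6.70 points with low positions.

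Part of the mixed tiles held a CpG with unlike strands. Of 10224 CpGs measured on both strands in sparse intermediate tiles, 22% had strands more than 30 points apart in control LSK, against 1.82% in sparse tiles at 80% or more. Control levels defined both sets of tiles, and a low strand lowers its tile, so this gap follows partly from the choice of tiles. In 1600 CpGs of sparse intermediate tiles one strand was below 20% and the other at 80% or more over the controls, and they lay in 1029 tiles (7.82%). Only 3 of those tiles (0.292%) fell in knockout LSK, with a median difference of -0.214 points, against 331 (6.97%) and -5.26 points in the 4749 tiles whose CpGs measured on both strands had no such pair. All 1029 were mixed by definition, against 1087 of the 4749, and mixed tiles fell less often, as given above. The part of this in the gap was not tested. Kcne4, an accessory subunit of potassium channels, shows one beside its start: position -9 on the plus strand averaged 2.61% in control LSK and position -8 on the minus strand 79.3%. Its tile stood at 66.4% and 70.2% in control and knockout LSK and at 67.4% and 70.7% in GMP.

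Where a promoter sequence was at hand, 9 of 9 such CpGs in sparse intermediate tiles lay in CCGG, the MspI site, against 96 of 195 (49.2%) other CpGs measured on both strands there. The part of the site in these levels was not tested. Leaving out the 1029 tiles gave 759 that fell and 3 that rose in LSK, with a mean difference of -6.28 points.

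Some genes held several falls. Of the 762 tiles, 604 lay in or within 1000 bp of a gene, 656 genes in all, of which 57 held at least 2 and 10 at least 3. Gse1, whose product is found with histone deacetylase corepressors, held the most: 9 of its 27 sparse intermediate tiles fell. Over the 27, the mean level was 59.4%, 58.7% and 59.0% in control LSK and 43.5%, 39.6% and 40.7% in knockout LSK. In Nfix, a nuclear factor I gene needed for the survival of transplanted blood stem cells, 5 of 9 fell, and the means over 9 tiles went from 41%, 37.5% and 39.6% to 19.8%, 18.8% and 17.5%. No library of one group reached the other in either gene, but both genes were named for their number of falls.

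Other genes held 3 or 4 falls each. Pitpnm2, a phosphatidylinositol transfer gene, held 4 falls among 5 tiles, and Ece1, the endothelin-converting enzyme, 4 among 7. Zmiz1, a coactivator of Notch1, held 3 among 9, and Wwox, an oxidoreductase gene, 3 among 12. Smad6, an inhibitory Smad, held 3 of 3, Prdm16 4 of 11 and Pik3r1, the regulatory subunit of PI3-kinase, 3 of 6. All 20 tiles of these 3 genes lie in windows with genotype-specific positions. Those positions were found in both cell types at Prdm16 and in GMP only at Smad6 and Pik3r1. The part of this was not tested. Longer genes hold more tiles, and the counts are not corrected for that.

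**Figure D5:**
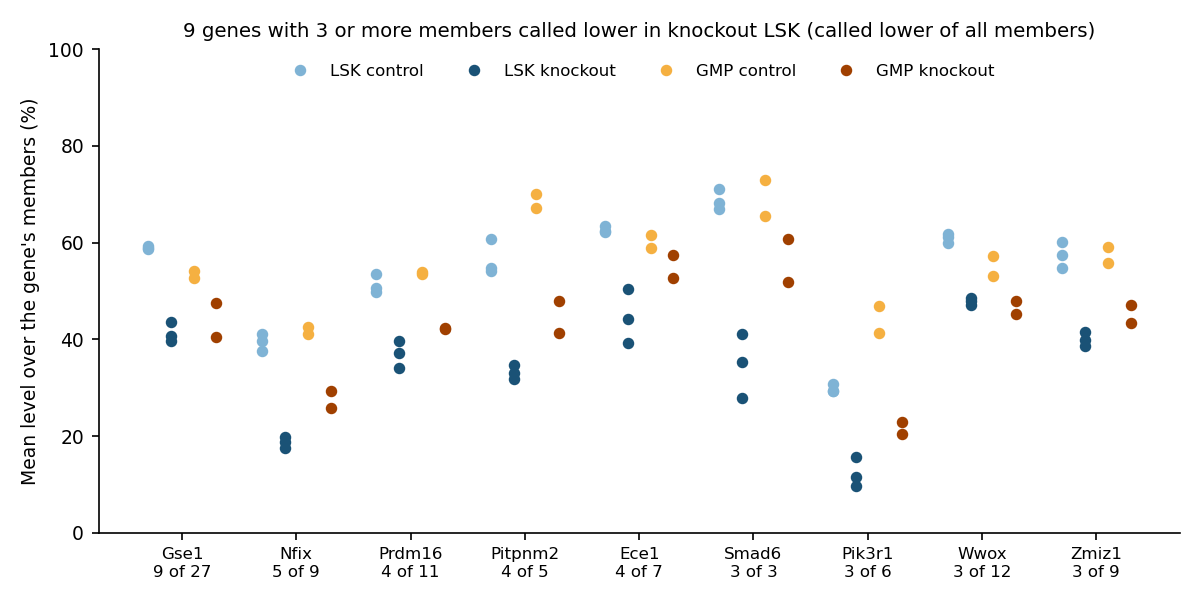
Mean level in percent (vertical axis, 0 to 100) over all sparse intermediate tiles of 9 genes with 3 or more called falls in knockout LSK, one point per library and a colour per group; the numbers under each name give called falls of all such tiles. Knockout LSK points lie under the control LSK points in all 9 genes, and Nfix and Pik3r1 have knockout LSK points below 20%.

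Only 3 sparse intermediate tiles rose in knockout LSK. A tile 8288 bp from Dmrtb1, a germ cell factor gene, stood at 42.2%, 63.9% and 35.6% in controls and 96.1%, 98.2% and 81.8% in knockouts (+44.8 points, SE 6.72). In GMP the same tile had 87.2% and 90.9% in controls and 12.1% and 39.7% in knockouts, the opposite order, without a call there. One in Cfap54, a gene of motile cilia, had 72.6%, 73.3% and 82.5% in controls and 95.8%, 98.8% and 98.3% in knockouts, and its difference was 19.7 points, short of the threshold, without control 1326. The third, in Dcdc2c, had 33.8%, 36.4% and 34.8% in controls and 80%, 30.4% and 75% in knockouts, so its groups overlap. Its tile lies in a window with genotype-specific positions in GMP only.

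The second question was whether GMP cells of knockout mice also differed from controls. The Dnmt3a segment, picked for its absence in knockout LSK, was still listed in part by both knockout GMP libraries, at 27.9% and 53.3% of the control coverage. That choice fixed the absence in LSK, so the segment cannot compare the loss between the cell types. The part of the remaining coverage in the values below was not tested. Mean levels were 55.5% and 55.9% in control libraries 346 and 349 and 51.8% and 52.8% in knockout libraries 178 and 179, or 55.7 ± 0.314% and 52.3 ± 0.680% (SD, n = 2 each). The difference was -3.43 points, against -1.25 points over all tiles. In knockout GMP 69 sparse intermediate tiles fell and 8 rose, while 0.0869% of all tiles fell and 0.00999% rose. None was called by this test when the fit held only the GMP libraries (2088 at an unadjusted p under 0.05) or when 346, 349 or 178 was left out (1385 to 1752), and limma on logit levels over all libraries called 4 lower and 6 higher, which turns the balance of the calls. Without LSK library 1333 there were 153, without an LSK control 23 to 28, without 179 there were 32, and outside the windows with genotype-specific positions 37. The control level of LSK, which GMP libraries did not set, gave mean GMP differences of -3.42 points at 20 to 30%, -4.45 points at 50 to 60% and -3.30 points at 70 to 80%.

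Egfl7, a gene of a secreted endothelial factor that hosts miR-126, had the largest GMP fall. Its tile at chr2:26585001-26586000 stood at 79.3% and 80.2% in control GMP and 19.4% and 25% in knockout GMP (-57.5 points, SE 4.82, adjusted p = 0.0055 by the quasi-binomial test). In LSK it stood at 34.7%, 28.6% and 34.7% in controls and at 0.179%, 0.439% and 2.14% in knockouts. This tile was more methylated in control GMP than in control LSK, and knockouts were lower in both, though the GMP call was lost without 346, 349 or 178 (adjusted p = 0.0749 to 0.0987 by the same test).

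Ifitm1, an interferon-induced membrane protein gene, fell from 71.7% and 72.3% to 26.4% and 18% at chr7:140970001-140971000, and Dlgap5, of the mitotic spindle, from 64.8% and 63.7% to 20.6% and 23.9% at chr14:47395001-47396000. Both had lower LSK controls, at 45.5%, 50.3% and 45.7% and at 39.5%, 37.6% and 36.0%, and both also fell in knockout LSK. A330001L22Rik, a lncRNA gene, fell by 45.1 points and Atp6v1a, a catalytic subunit of the vacuolar proton pump, by 43.9 points. Of the 8 rises, 7 lay in windows with genotype-specific positions, which hold 7.72% of the sparse intermediate tiles. One outside them, 8121 bp from Gm23507, went from 42.8% and 49.9% to 100% and 97.9%, while its 6 LSK libraries lay between 94.5% and 100%.

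The group means of the LSK and GMP knockout comparisons share no library, but the calls of both used a dispersion over all 10. Of the 762 tiles that fell in LSK, 716 lay below zero in GMP, a larger share than in all sparse intermediate tiles (8533 of 13156, 64.9%). The 762 had a median GMP difference of -14.6 points and median levels of 60.1% in control and 43.2% in knockout GMP. Those called lower in both numbered 44, which is 5.77% of the LSK list and 63.8% of the GMP list, beside 0.524% of all sparse intermediate tiles that fell in GMP and 5.79% in LSK. No tile of the GMP list was called in the fit of the GMP libraries alone, as given above. The difference between the responses was tested as an interaction over all tiles. It was called for 1 sparse intermediate tile, in Srd5a3, against 0.003% of all tiles in either direction. At an unadjusted p under 0.05 there were 1318, and limma on logit levels called 0, so in the other tiles the responses of the cell types were not shown to differ.

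The cell types themselves were compared within each genotype. Depth goes with cell type and the number of Y positions does in part, as given above. Their part in the counts below was not tested. A wide gap between the control cell types moves the control mean of a tile toward the middle, so the control counts below follow partly from the choice of tiles. In control GMP 670 sparse intermediate tiles were lower than in control LSK and 78 were higher, with 0.809% and 0.0919% of all tiles. These 748 calls were 406 without library 346 and 408 without 349. Between the knockout cell types 512 were lower in GMP and 175 higher, with 0.669% and 0.229% of all tiles. Of the 512, 422 were also lower in control GMP, with a median control difference of -37.5 points over the 512, so the choice of tiles bears on these counts too. The 687 calls were 450 without library 178, 298 without 179 (260 lower and 38 higher) and 277 in a fit of the knockout groups alone. The median GMP minus LSK difference was -0.281 points in controls and 1.41 points in knockouts. These comparisons share libraries with those of the knockout, so no overlap is given.

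The largest losses in GMP went from nearly full to nearly none. A tile 51756 bp from the lncRNA gene Gm20750 stood at 91.1%, 91.7% and 88.3% in control LSK and 0% and 2.17% in control GMP. In Uggt1, a sensor of glycoprotein folding, levels were 88.6%, 88.5% and 92.7% against 5.12% and 5.31%. Sema4d, a semaphorin of lymphocytes, had 90.6%, 87.4% and 88.4% against 4.29% and 10.8%. A tile at Dock6 and Angptl8 and one near the chemokine gene Cxcl9, in a window with genotype-specific positions, were lower by 80.4 and 78.6 points. In knockouts Uggt1 stood at 89.3%, 97.8% and 84.9% in LSK and 8.18% and 15.4% in GMP, and the tiles near Gm20750, in Uggt1 and near Gm42372 had the largest losses. At Mcemp1, a membrane protein gene first found in mast cells, the 3 promoter positions averaged 89.1%, 89.0% and 93.3% in control LSK and 23.0% and 16.3% in control GMP. Abca13, a lipid transporter gene, had 95.8%, 96.2% and 89.8% against 29.2% and 56.4%.

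Fewer tiles were higher in GMP. Ube2ql1, related to ubiquitin-conjugating enzymes, had 8.73%, 9.57% and 11.8% in control LSK and 93.2% and 78.4% in control GMP, and its knockout GMP libraries were far apart at 31.4% and 85.1%. The call was lost without 346 or 349. Pik3r1 at chr13:101692001-101693000, in such a window, had 5.45%, 9.95% and 14.1% against 60.6% and 68.5%, with 16.9% and 29.6% in knockout GMP. Dst, a cytoskeletal linker, had 31.1%, 16.1% and 23.9% against 83.2% and 51.8%, with a call that was lost without any one of 7 libraries. In knockouts the largest such gaps were in Scarb2, a lysosomal membrane protein whose tile is in such a window, in Macrod1, an ADP-ribose hydrolase, and at Tbc1d2, lost without 1334, 178 or 179. Macrod1 stood at 13.7%, 3.19% and 7.09% in knockout LSK and 53.0% and 62.2% in knockout GMP.

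Gene lists, chosen with earlier results of these data known, were counted over the sparse intermediate tiles in or within 1000 bp of listed genes. Over all sparse intermediate tiles the LSK median was -4.23 points and 5.79% were called lower. Because of how the lists were chosen, a gap between a list and these values is not read as a result. Of 71 tiles at stem cell regulators 19 fell in knockout LSK, with a median of -11 points. They lay in Hlf, Prdm16, Msi2, Hoxa5, Nfix, Nfic, Cbfa2t3, Runx3 and Mn1, and 6 of the 71 (8.45%) fell in knockout GMP, against 0.524% of all sparse intermediate tiles. By limma on logit levels 17 were lower in LSK and 0 in GMP, where 28 were lower at an unadjusted p under 0.05 of the quasi-binomial test. Of 30 tiles at cytokine and kinase signalling genes 8 fell, with a median of -10.3 points, in Stat6, Pik3r1, Pik3c2b, Dok2 and Rps6ka1. Pik3c2b, a class II PI3-kinase, went from 73.3%, 56.2% and 66.2% to 35.8%, 22.2% and 20.7% in LSK and was at 3.37% and 2.75% in control GMP.

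Genes of single lineages held 1 to 3 falls a list. At myeloid genes 3 of 17 fell in knockout LSK (median -7.00 points), in Spi1, Irf8 and Zeb2, and 5 were lower in control GMP than in control LSK (median -14.7 points), against 5.09% and a median of -0.281 points over all sparse intermediate tiles. Among these, Cebpe, a factor of late granulocytes, had 68.6%, 70.9% and 72.8% in control LSK and 26.8% and 28.5% in control GMP, and Cebpb 81.4%, 61.3% and 68.1% against 29.7% and 25.3%. At lymphoid genes 1 of 33 fell, in Notch1, the receptor that starts T cell fate, from 71.1%, 68.0% and 68.4% to 48.8%, 47.2% and 48.6% (median of the 33 -4.28 points). At erythroid and megakaryocyte genes 3 of 20 fell (median -6.88 points), in Zfpm1, a cofactor of Gata1, Itga2b, the platelet integrin, and Gp1bb. Itga2b went from 43.5%, 48.0% and 46.7% to 24.9%, 19.9% and 24.9%. The Zfpm1 call was lost without control 1330 (adjusted p = 0.0753 by the quasi-binomial test) and at -19.9 points without knockout 1333.

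The other lists were mixed. At homing and adhesion genes 2 of 17 fell (median -6.63 points), in Gnai2 and Itga6, a laminin-binding integrin whose call was lost without any one of 8 libraries (adjusted p = 0.0522 to 0.155 by the quasi-binomial test). Itgb2, the leukocyte beta integrin, was not called in knockout LSK and stood at 85.4%, 82.4% and 85.9% in control LSK against 16.4% and 27.0% in control GMP. At genes of stroma and endothelium 4 of 18 fell (median -6.20 points), in Egfl7, Tagln, Nes and Cspg4, though no such cell was sorted. At developmental factors 1 of 37 fell (median -3.71 points), in Tbx1, lost at -18.9 points without 1326 and -17.9 points without 1334, and at the methylation machinery 1 of 7 (median -5.48 points), in Tet1, from 68.5%, 77.3% and 69.4% to 44.7%, 45.8% and 51.9%.

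Imprinted genes, where parental alleles differ, gave no call in knockout LSK over 47 tiles by the quasi-binomial test or by limma on logit levels. At an unadjusted p under 0.05 there were 8 lower, and the median was -2.49 points. Means over the 47 were 48.5%, 48.1% and 46.1% in control LSK and 46.8%, 42.9% and 46% in knockout LSK, so these groups overlap. Those of the stem cell list did not, at 51.4%, 52.3% and 52.1% against 38.2%, 38.3% and 35.4%. Both lists were chosen with earlier results of these data known. Igf2r, which clears insulin-like growth factor II, held a tile at 56.8%, 68.5% and 70.3% in control LSK and 42.8% and 41.5% in control GMP, a call that was lost without any one of 4 control libraries (adjusted p = 0.102 to 0.184 by the quasi-binomial test).

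Some intermediate tiles barely varied between libraries. The 5 steadiest, with a control mean of 40 to 60%, at least 6 C positions and ample reads, were in Rab11fip4, in the lncRNA gene Gm33581, near Gm30938, near Slc4a8 and at Zfp628 and Nat14. In the tile near Slc4a8, a bicarbonate transporter gene, all 10 libraries lay between 42.9% and 50.1%, and in Rab11fip4, a Rab11 effector, between 50.6% and 57.2%. In 4 of the 5 the middle level is an average of extremes: all but the tile at Zfp628 and Nat14 held positions both below 20% and at 80% or more, and their positions spanned 84.6 to 98.9 points. The spread between libraries set what could be called: the median SD of a sparse intermediate tile was 3.62 points in control LSK, 4.96 in knockout LSK, 4.16 in control GMP and 3.63 in knockout GMP, against 1.38 points over all tiles in control LSK.

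The limits of the definition fall inside a continuous range of levels. At 18 to below 20% there were 330 sparse tiles with a median LSK difference of -3.90 points, and at 20 to below 22% there were 317 with -4.25 points. At 78 to below 80% there were 983 with -2.84 points, and at 80 to below 82% there were 1182, also with -2.84 points. At 18 and 19 C positions 45 and 49 tiles had medians of -4.87 and -5.50 points, and at 20 and 21 C positions 47 and 29 had -3.08 and -3.85 points. The tiles nearest the limits were one near Ttyh3 inside and one in Nrg4 outside 20%, and one at Gm19439 inside and one near Gm5214 outside 80%, with LSK differences of -3.31, 1.61, 2.29 and -7.49 points.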

How the data were processed

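Enhanced reduced representation bisulfite sequencing of 11 libraries was deposited as one table of C positions per library. Per the file headers, a position has a coverage, which is a count of reads, and 2 deposited percent values, for C and for T. All listed positions have 10 or more reads. Bismark, mm10 and GRCm38 are named in the submitters' processing notes, without a version or a role. Coverage times the deposited percent gave whole reads for 100% of values. Groups came from titles and genotype fields. Library 352 has labels that contradict each other and entered no comparison.

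Reads were summed over the C positions of each tile with 10 or more reads in all 10 assigned libraries. A quasi-binomial logistic model with one mean per group was fitted to each of 100150 tiles, with an F test, a Pearson dispersion (moderated with squeezeVar of limma 3.58.1 in R 4.3.3, its prior a trend over log coverage, and never under 1) and Benjamini-Hochberg adjustment over all tiles. Calls needed an adjusted p under 0.05 and a difference of group means of at least 20 points. SEs come from the moderated dispersion. Tables and plots were made with Python 3.11.15, pandas 2.3.3, NumPy 2.4.6 and Matplotlib 3.10.9. The code was tested on simulated reads, with falls set in sparse intermediate tiles of higher control level. Simulated falls of 20 and 30 points were called in 37.3% and 82.1% of such tiles in LSK. In GMP the shares were 13.4% and 29.9%. The numbers of calls in LSK and GMP thus do not compare the size of the responses.

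Gene spans and promoter sequences came from RefSeq tables of GRCm38.p6, and all 199416 positions inside promoter windows lay on CG. Tiles were named by rule: the largest called differences of each comparison without overlap of libraries, genes with 3 or more falls (one item is not reported here), called tiles of each gene list, the steadiest tiles and those nearest the limits. Dcdc2c and the promoters printed were named after their values were seen. The tiles and gene lists were chosen with earlier results of these data known. Reads carry no molecular identifiers, and the number of reads per tile limits precision. Alternatives changed the dispersion, the test, the coverage minimum, the tile borders, the threshold, the control band, the windows and the libraries.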

Additional observations from a re-analysis of the deposited data

Results flagged for a closer look

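The difference between the knockout responses of the cell types passed the test in 1 sparse intermediate tile, and in 2 others the libraries moved in opposite directions without passing it. At the tile in Srd5a3, a polyprenol reductase gene (chr5:76153001-76154000), the GMP response minus the LSK response was 47.7 points (interaction adjusted p = 0.047 by the quasi-binomial test). Control GMP libraries had 40.8% and 45.5%, knockout GMP 90% and 87%, control LSK 77.9%, 86% and 82.9% and knockout LSK 78.4%, 76.7% and 84.8%. The tile lies in a window with positions listed in one genotype only, and the part of this was not tested. Its call was lost without any one of 8 libraries (interaction adjusted p = 0.0734 to 0.453). At the tile near Dmrtb1 (chr4:107667001-107668000) every knockout LSK library was above every control and every knockout GMP library below every control, with a difference of responses of -108 points that missed the threshold (interaction adjusted p = 0.099 by the same test). At the tile in Cfap54 (chr10:92793001-92794000) the order was the same, with -30.6 points (interaction adjusted p = 0.281).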

How the results depend on the processing

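The mean differences of the sparse intermediate tiles kept their sign and stayed within 1 SD of the reported value under every alternative run, with -6.77 to -5.17 points in LSK and -3.91 to -2.95 points in GMP when a library was left out. The 765 calls in knockout LSK became 183 without moderation of the dispersion, all among the 762 falls, and 1619 at a minimum of 10 points. Counts were made anew in each setting below. Shared tiles were checked only for falls in knockout LSK, in part of the settings. With a library left out, the share of falls that were among the 762 ran from 69.4% without 1327 (718 of 1035) to 98.9% without 349 (727 of 735). The 77 calls in knockout GMP became 10 with limma on logit levels (4 lower, 6 higher), 48 in a control band of 30% to below 70%, 37 without windows of genotype-specific positions, and 0 without moderation or with only the GMP groups, where 1549 and 2088 passed an unadjusted p under 0.05. The 748 control calls between the cell types became 203 without moderation and 489 in the narrower band. The 687 knockout calls became 145 and 449, and 277 with only the knockout groups. The 1 interaction call was 0 with a prior from intermediate levels, without moderation, with limma, in tiles shifted by 500 bp and without the windows, where 1199, 948, 1133, 1333 and 1146 passed an unadjusted p under 0.05. It was 2 at a minimum of 10 points and 2 over autosomal tiles. Leaving out each library gave 585 to 1039 calls in knockout LSK, 0 to 153 in knockout GMP, 406 to 889 between control and 298 to 796 between knockout cell types, and 0 to 7 interactions. The GMP count was 28, 27 and 23 without LSK controls 1326, 1330 and 1331 and 32 without 179. The cause was not tested. Leaving out a library ended the calls of Cfap54, Zfpm1, Itga6 and Tbx1 among 22 named in knockout LSK and all 12 named in knockout GMP. No paired analysis was possible because library numbers are unique to a library. Leaving out the tiles with unlike strands was chosen after seeing the data. Depth limits tiles of few reads, and falls under 20 points were not called.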

Other observations

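GMP library 352, whose title and genotype field name opposite genotypes, was in no comparison. Over the 12391 sparse intermediate tiles it also measures, its mean level was 47.4%. Over the same tiles control LSK libraries had 57.3 to 57.8%, knockout LSK 50.1 to 53.5%, control GMP 55.3% and 55.7%, and knockout GMP 51.5% and 52.5%. Over 739 of the 762 tiles that fell in knockout LSK its mean was 25.4%. It stood at 4.54% at Gnai2 and 0.379% at Egfl7.

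Library 1333 lists 129024 C positions that no other LSK library lists, against 8117 to 26078 in each of the others. Tiles use positions of all 10 libraries, so these positions entered no tile.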
